A study of Mus musculus with 32 samples.

Results

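The liver genes described here encode 10 plasma proteins of the acute phase response: the serum amyloid A genes Saa1, Saa2, Saa3 and Saa4, the lipocalin gene Lcn2, the orosomucoid genes Orm1, Orm2 and Orm3, the haptoglobin gene Hp and the serum amyloid P gene Apcs. They were taken by gene symbol and make up 10 of the 21092 genes tested. Lcn2 was selected on a measured value, being known to lie among the largest rises after partial hepatectomy (PH) in M+Fc-GLP-1 mice, so the levels of M+Fc-GLP-1 mice after and before PH are set side by side as a description, without a test. Liver RNA of male C57/BL6 mice was measured on 32 one-colour arrays, 4 in each of 8 groups. C mice were fed a standard diet and MCD mice a methionine and choline deficient diet for 3 weeks before PH, and untreated mice received vehicle. The mice named C+Fc-GLP-1 or M+Fc-GLP-1 had the same diets and, for 2 weeks before PH, Fc-GLP-1, a long-acting agonist of the GLP-1 receptor. Each of these groups was sampled before PH and 2 weeks after PH, which removed 70% of the liver, with diet and treatment continued. The groups after PH therefore hold mice that survived surgery, and the labels do not say whether they are the mice sampled before. Some labels instead call the drug a dual agonist, of the glucagon receptor besides that of GLP-1, dosed at 4.4 mg/kg daily. The source labels of C+Fc-GLP-1 mice after PH name Fc-GLP-1 before surgery and a dual agonist after it. Those of M+Fc-GLP-1 mice say that the same treatment continued. The name Fc-GLP-1 is kept here for all treated groups.

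Acute phase proteins are made by hepatocytes and released into plasma after injury or infection. Interleukin 6, acting through STAT3, and interleukin 1 and TNF, acting through NF-kappaB and C/EBP factors, are known to switch on their genes. Saa1 and Saa2 encode the inducible amyloid A proteins of high density lipoprotein, Saa3 is made largely by macrophages and adipocytes as well as by the inflamed liver, and Saa4 is the constitutive member of the family. Lcn2 encodes an iron siderophore-binding protein that is stored in neutrophil granules and also made by stressed hepatocytes. The orosomucoids are acid glycoproteins that bind drugs and lipids, Hp encodes the scavenger of free haemoglobin, and Apcs encodes a pentraxin that is a major acute phase protein of the mouse.

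The promoters of 4 genes are shown because these genes took different courses: Saa1 and Saa2 moved as a pair, Lcn2 had the widest range, and Apcs followed the diet. Each line gives the 250 bases before the transcription start listed by RefSeq (GRCm38.p6), 5′ to 3′ on the strand of the gene. For Saa1, and for Saa3 and Orm3 whose windows are not shown, this start lies inside the gene span given below. Their windows therefore overlap the gene. Capitals mark the C/EBP core TTGCNNAA on either strand, or the STAT motif TTCNNNGAA.
Saa1 (chr7:46742981-46743230, minus strand): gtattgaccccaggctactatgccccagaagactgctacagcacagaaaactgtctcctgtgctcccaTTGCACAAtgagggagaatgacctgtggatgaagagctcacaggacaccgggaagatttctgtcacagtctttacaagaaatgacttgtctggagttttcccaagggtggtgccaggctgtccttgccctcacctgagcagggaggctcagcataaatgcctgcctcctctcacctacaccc
Saa2 (chr7:46751583-46751832, plus strand): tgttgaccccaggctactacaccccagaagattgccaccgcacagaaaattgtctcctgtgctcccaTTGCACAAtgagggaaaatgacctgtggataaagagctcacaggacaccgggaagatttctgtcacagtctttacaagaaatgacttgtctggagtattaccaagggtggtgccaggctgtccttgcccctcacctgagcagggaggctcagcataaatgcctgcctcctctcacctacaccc
Lcn2 (chr2:32387740-32387989, minus strand): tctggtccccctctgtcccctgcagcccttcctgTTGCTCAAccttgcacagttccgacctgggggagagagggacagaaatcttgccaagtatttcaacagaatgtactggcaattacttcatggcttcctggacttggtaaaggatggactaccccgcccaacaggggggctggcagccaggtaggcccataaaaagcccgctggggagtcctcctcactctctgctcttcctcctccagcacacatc
Apcs (chr1:172895055-172895304, minus strand): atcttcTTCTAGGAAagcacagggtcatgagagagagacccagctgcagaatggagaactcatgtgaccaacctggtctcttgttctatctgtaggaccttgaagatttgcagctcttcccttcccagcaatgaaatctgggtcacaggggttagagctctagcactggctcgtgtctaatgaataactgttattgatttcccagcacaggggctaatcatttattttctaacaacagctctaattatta
Promoters of 8 of the 10 genes were listed, all but Hp and Orm1. The C/EBP core was found in 7 of these 8 windows and in 9.56% of the 32851 windows of the same length in the table. Saa1 held it at positions -182 to -175 and Saa2 at -183 to -176 from the start, with the same 8 bases, TTGCACAA. Orm3 held these 8 bases too, at -121 to -114, and Orm2 held TTGCGCAA at -120 to -113. Apcs was the window without the core and held a STAT motif at -244 to -236, which 7.02% of all windows hold. None of the 8 windows held the 10-base kappaB consensus, present in 7.25% of all windows. The windows of Saa1 and Saa2 shared 238 of 251 aligned positions (94.8%), those of Orm2 and Orm3 219 of 255 (85.9%) and those of Saa1 and Saa4 122 of 265. These matches describe letters in a window and not binding.

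Each gene was measured by a single probe of 60 bases. The Orm1, Orm2 and Orm3 genes lie side by side on chromosome 4 and are close copies, so their probes are shown to make plain that different stretches were read. The lines are 5′ to 3′ with the positions that the array design gives, and those of Orm1 and Orm3 span more of the genome than the probe is long.
Orm1 (mm9 chr4:63006483-63007090): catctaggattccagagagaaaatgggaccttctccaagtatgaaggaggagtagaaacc
Orm2 (mm9 chr4:63024979-63025038): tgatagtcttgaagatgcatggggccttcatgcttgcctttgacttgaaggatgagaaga
Orm3 (mm9 chr4:63018910-63020393): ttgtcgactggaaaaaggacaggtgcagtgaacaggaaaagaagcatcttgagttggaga
The serum amyloid A genes lie on chromosome 7 (GRCm38), from Saa3 at chr7:46711998-46719615 and Saa4 at chr7:46727992-46732603 to Saa1 at chr7:46740497-46743181 and Saa2 at chr7:46751833-46754313. Lcn2 is at chr2:32384637-32387739, Hp at chr8:109575128-109579172 and Apcs at chr1:172893961-172895054. The orosomucoid genes span chr4:63344556-63348163 (Orm1), chr4:63356069-63359506 (Orm3) and chr4:63362449-63365877 (Orm2). Saa1 and Saa2, and the 3 orosomucoids, are near-identical enough that a probe of one could take up transcripts of another, and this was not tested.

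All 10 probes were well above background on 32 of 32 arrays, with none saturated or flagged. Levels are log2 signals relative to the 75th percentile of each array, so a level of 0 is that percentile and a level of 5 lies 5 doublings above it. Levels of different probes are not comparable with each other. On single arrays, 36.4% to 69.2% of all probes exceeded background clearly. The 8 hepatocyte markers tested were measured in every group, at a log2 summed level between 11.1 and 12.7. C and MCD arrays before PH shared slide 3, the treated arrays before PH slide 4 and the treated arrays after PH slide 5, whereas C and MCD arrays after PH lay each on a slide of their own and were read on another scanner. Slide and group can therefore not be told apart in the effects of Fc-GLP-1 at either time, in the diet effect after PH without treatment and in all changes over time. In whole liver, fewer cells of a type and less RNA per cell cannot be told apart.

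**Figure D1:**
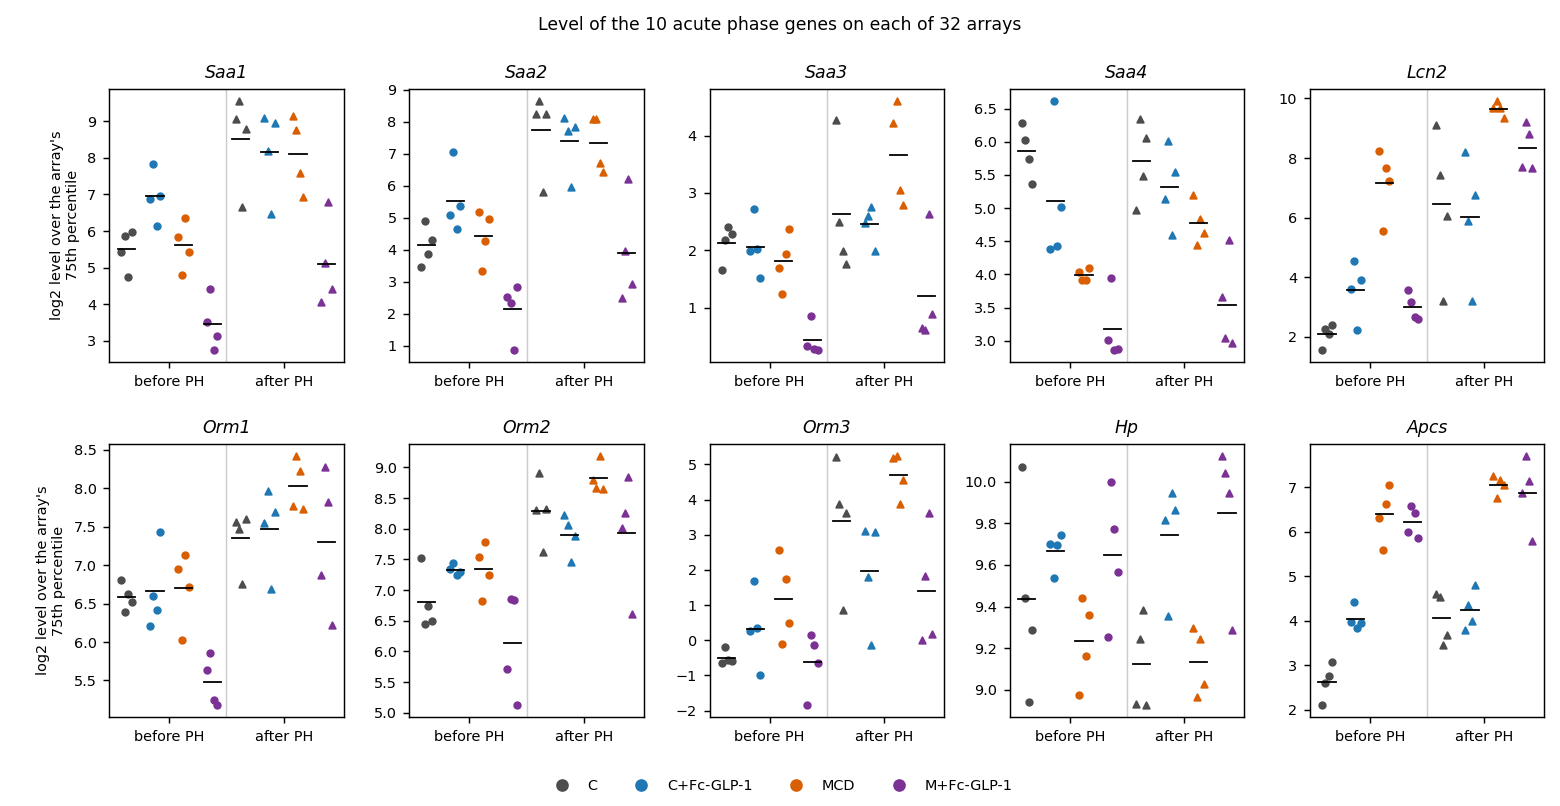
Each panel plots 1 gene, with the log2 level over the 75th percentile of the array on the y axis and the 8 groups on the x axis (circles before PH, triangles after PH, 4 arrays each, horizontal line at the group mean). Lcn2 runs from 2.09 in C mice before PH to 9.66 in MCD mice after PH, M+Fc-GLP-1 mice before PH are the lowest group for the serum amyloid A and orosomucoid genes, and Apcs separates the 2 diets.

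Saa1 was lowest in M+Fc-GLP-1 mice before PH, where the 4 arrays read 3.51, 4.42, 2.76 and 3.14. In MCD mice before PH the levels were 5.85, 4.81, 6.36 and 5.42, and in C mice 5.43, 5.85, 4.75 and 5.97. C+Fc-GLP-1 mice before PH read 6.88, 7.82, 6.13 and 6.95. The M+Fc-GLP-1 arrays lay below every other array taken before PH, and those of C and MCD mice interleaved. After PH, C mice read 9.06, 9.55, 6.67 and 8.78, MCD mice 9.14, 8.77, 7.60 and 6.92 and C+Fc-GLP-1 mice 9.08, 8.20, 6.46 and 8.96. M+Fc-GLP-1 mice after PH read 4.05, 5.14, 6.80 and 4.43, of which only the 6.80 overlapped another group taken after PH. The order of the group means ran from M+Fc-GLP-1 before PH (3.46 ± 0.71, SD, n = 4) through M+Fc-GLP-1 after PH (5.10 ± 1.22), C (5.50 ± 0.55), MCD (5.61 ± 0.66) and C+Fc-GLP-1 before PH (6.95 ± 0.69) to MCD (8.11 ± 1.03), C+Fc-GLP-1 (8.17 ± 1.21) and C after PH (8.52 ± 1.27), and each group overlapped the next.

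Saa2 kept the same order of groups as Saa1, from a mean of 2.15 ± 0.87 (SD, n = 4) in M+Fc-GLP-1 mice before PH to 7.73 ± 1.30 in C mice after PH. Over 32 arrays Saa1 and Saa2 had a Pearson r of 0.97, and 0.88 for deviations from the group means, a description over arrays that share groups and slides. Saa3 ranged less, from 0.43 ± 0.29 in M+Fc-GLP-1 mice before PH to 3.67 ± 0.88 in MCD mice after PH. Saa4 took another course and was highest in C mice before PH, at 6.28, 6.03, 5.74 and 5.36. MCD mice before PH read 4.04, 3.92, 3.92 and 4.09 for Saa4, all below the C arrays. M+Fc-GLP-1 mice had the lowest Saa4 means, 3.18 ± 0.52 before and 3.55 ± 0.72 after PH.

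Lcn2 had the widest range of the 10 genes, with 7.57 log2 units between the lowest and the highest group mean. C mice before PH read 1.58, 2.26, 2.11 and 2.40, whereas MCD mice before PH read 8.22, 5.55, 7.66 and 7.24. M+Fc-GLP-1 mice before PH read 3.59, 3.16, 2.66 and 2.62, and C+Fc-GLP-1 mice 3.59, 4.56, 2.24 and 3.90. Before PH, then, the untreated MCD arrays stood alone at high levels, and the arrays of the 2 treated groups interleaved at levels that met those of the C arrays at their low end. After PH, MCD mice read 9.69, 9.91, 9.68 and 9.35 and M+Fc-GLP-1 mice 7.69, 9.21, 8.81 and 7.66. Mice on the standard diet were spread out after PH, at 9.11, 7.43, 3.20 and 6.05 in C and 8.22, 5.89, 3.22 and 6.76 in C+Fc-GLP-1 mice. The array at 3.20 was also the lowest C array after PH for Saa1, Saa2, Orm1, Orm2, Orm3 and Apcs.

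Orm1 and Orm2 moved over a narrower range than the inducible serum amyloid A genes, with group means from 5.48 to 8.04 for Orm1 and from 6.13 to 8.82 for Orm2. Both were lowest in M+Fc-GLP-1 mice before PH and highest in MCD mice after PH. Orm3 spread most within groups, with a median SD of 1.16. It read -0.66, -0.18, -0.57 and -0.60 in C mice before PH and 5.22, 3.88, 0.86 and 3.60 in C mice after PH. In MCD mice Orm3 read 2.57, -0.12, 1.73 and 0.48 before and 5.18, 5.22, 3.86 and 4.56 after PH, and the groups taken before and after PH did not overlap on either diet without treatment.

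The group means of Hp ran from 9.12 ± 0.23 (SD, n = 4) in C mice to 9.85 ± 0.38 in M+Fc-GLP-1 mice, both after PH, a range of 0.73. Their order depended on the processing. Over 15 other choices of processing or arrays, the Hp change over time in C mice ran from -0.48 to 0.95, and 1 called it. The main fit gave -0.31. In MCD against C mice before PH it ran from -0.36 to 0.72 (-0.20 in the main fit). Apcs followed the diet. It read 2.11, 2.60, 2.76 and 3.08 in C mice before PH and 6.31, 5.60, 6.63 and 7.05 in MCD mice before PH. In M+Fc-GLP-1 mice it read between 5.85 and 6.58 before PH and 6.88, 7.69, 7.14 and 5.79 after PH. The lowest of the 16 arrays on the MCD diet, 5.60, lay above the highest of the 16 on the standard diet, 4.81.

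**Figure D2:**
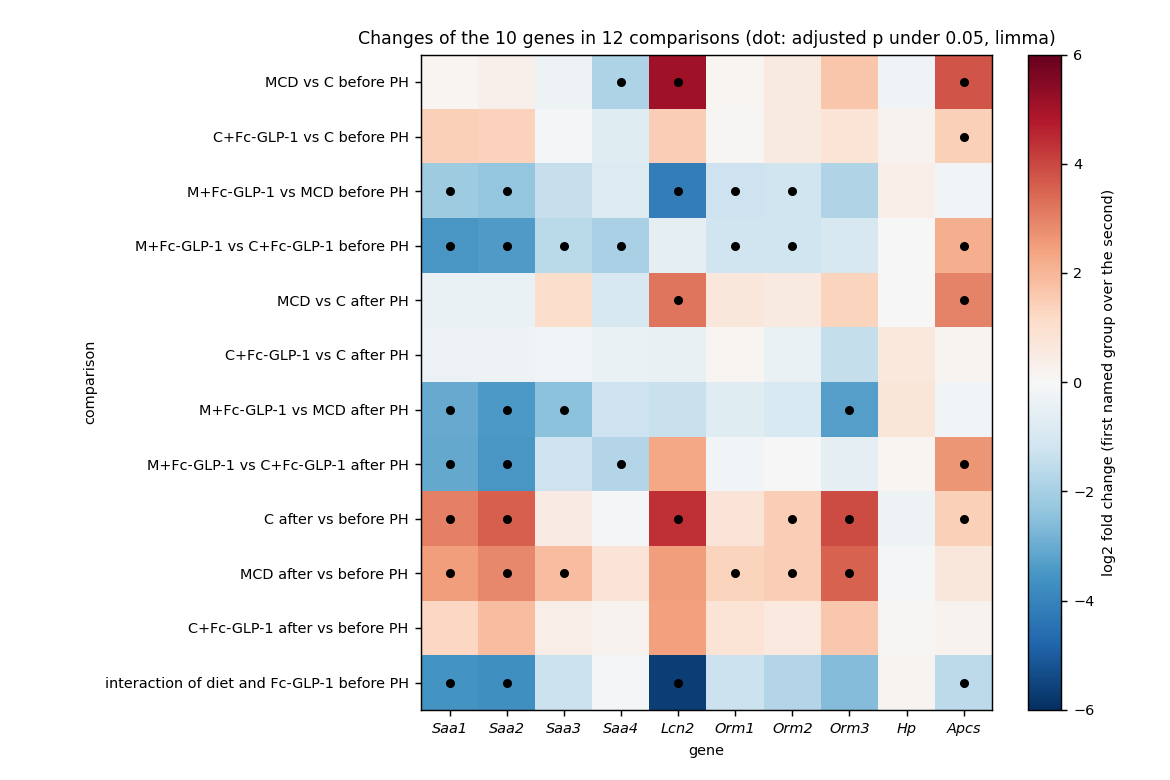
Log2 fold change (colour, red where the first named group is higher) of each of the 10 genes on the x axis in each of 12 comparisons on the y axis, with a dot where the adjusted p is under 0.05. Apcs is dotted in the 4 comparisons of diets, Saa1 and Saa2 are blue wherever M+Fc-GLP-1 mice are set against another group, and Hp has no dot.

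The first question was what the MCD diet did to the acute phase genes before surgery, in arrays of the same slide. In MCD against C mice before PH, 2 of the 10 genes rose and 1 fell, beside 26.5% of all tested genes past the threshold in this comparison. Lcn2 rose 33.8-fold (log2 5.08 ± 0.86, SE, n = 4 per group, adjusted p = 9.29e-05, limma) and Apcs 13.6-fold (3.76 ± 0.34, adjusted p = 1.46e-08). Saa4 fell 3.64-fold (-1.86 ± 0.41, adjusted p = 0.00131). Saa1 (0.11 ± 0.63), Saa2 (0.31 ± 0.70), Saa3 (-0.32 ± 0.46), Orm1 (0.12 ± 0.35), Orm2 (0.54 ± 0.38) and Hp (-0.20 ± 0.22) did not pass the test. Orm3 was higher on every MCD array than on any C array, by 1.67 ± 0.81, without passing (adjusted p = 0.128). The groups did not overlap for 4 of the 10 genes, beside 28.4% of all genes. So the diet moved Lcn2 and Apcs by large amounts, while the classical Saa1 and Saa2 differed by less than the spread between arrays. After PH the calls were Lcn2, 9.25-fold higher in MCD than in C mice (3.21 ± 0.86, adjusted p = 0.0136), and Apcs, 7.96-fold higher (2.99 ± 0.34, adjusted p = 8.40e-07), beside 12.1% of all genes. The Lcn2 call after PH was lost without C replicate 3, the array at 3.20 (2.13, adjusted p = 0.0896), with the authors' normalized values and in a fit of these 8 arrays alone.

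The second question was what Fc-GLP-1 did on each diet before surgery. On the standard diet Apcs was the gene of the 10 that changed, 2.65-fold higher in C+Fc-GLP-1 than in C mice (1.41 ± 0.34, adjusted p = 0.0281), beside 2.11% of all genes. That call was lost when any of 5 of the 8 arrays was left out (adjusted p up to 0.0906). Saa1 was higher on every C+Fc-GLP-1 array than on any C array, by 1.45 ± 0.63, without passing (adjusted p = 0.215), with 2 of the 10 genes not overlapping between the groups, beside 9.96% of all genes. It passed under normexp with quantile normalization and with the authors' values.

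On the MCD diet, 5 of the 10 genes fell under Fc-GLP-1 before PH and none rose, beside 7.24% of all genes past the threshold, 2.78% lower. Lcn2 fell 17.9-fold (-4.16 ± 0.86, adjusted p = 0.00519), Saa1 4.45-fold (-2.15 ± 0.63, adjusted p = 0.0364) and Saa2 4.92-fold (-2.30 ± 0.70, adjusted p = 0.0434). Orm1 fell 2.34-fold (-1.23 ± 0.35, adjusted p = 0.0331) and Orm2 2.32-fold (-1.21 ± 0.38, adjusted p = 0.0496). The median change of the 10 genes was -1.30, beside 0.10 over all tested genes. Saa3 was lower on every treated array, by 1.37 ± 0.46 on the log2 scale, just outside the threshold (adjusted p = 0.0629), and 5 of the 10 genes did not overlap between the groups, beside 16.4% of all genes. Apcs differed by -0.18 ± 0.34. Orm3 (-1.79 ± 0.81, adjusted p = 0.173) and Saa4 (-0.81 ± 0.41, adjusted p = 0.216) did not pass either. The Lcn2 call held with each array left out in turn, whereas Saa1, Saa2 and Orm1 each lost theirs without 6 of the 8 arrays and Orm2 without 5 (adjusted p up to 0.175). The comparison shares its MCD arrays with that of the diets, and its M+Fc-GLP-1 arrays are one side of the contrast for which Lcn2 was chosen. The Lcn2 p, and the hold of its call with arrays left out, are therefore not independent of that choice.

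**Figure D3:**
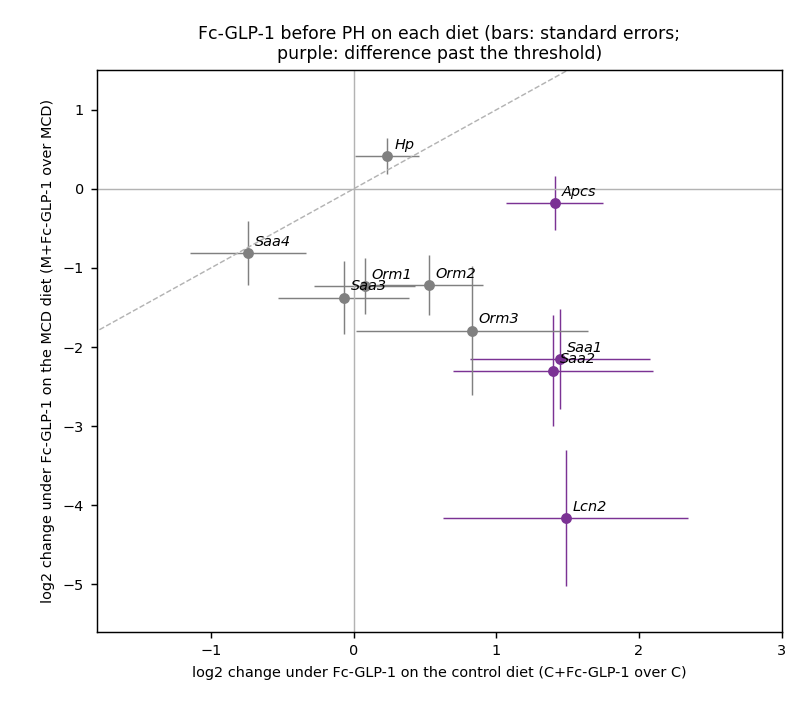
Log2 change of each gene under Fc-GLP-1 before PH on the standard diet (x axis) and on the MCD diet (y axis), with standard errors as bars and a dashed line where the 2 would be equal. Saa1, Saa2, Lcn2 and Apcs (purple), whose difference between the diets passed the threshold, lie right of 0 on the x axis and below the line, Lcn2 at 1.49 and -4.16.

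The difference between these 2 drug effects was tested before PH as the diet by drug interaction, in which an additive difference between slides cancels. It passed the threshold for 4 of the 10 genes, each lower than the sum of the separate effects, beside 6.17% of all genes, 2.56% lower. The Lcn2 value rests in part on the M+Fc-GLP-1 arrays before PH, a side of the contrast for which Lcn2 was chosen, so its p is not independent of that choice. The interaction was -5.65 ± 1.22 for Lcn2 (adjusted p = 0.00946), -3.60 ± 0.89 for Saa1 (adjusted p = 0.0191), -3.70 ± 0.99 for Saa2 (adjusted p = 0.0275) and -1.59 ± 0.48 for Apcs (adjusted p = 0.0473). Orm2 lay just outside (-1.74 ± 0.54, adjusted p = 0.0507), whereas Saa4 (-0.07 ± 0.57) and Hp (0.18 ± 0.32) were near 0. The Saa1 call held under each of the 24 alternatives run, Saa2 lost its call without any 1 of 4 arrays (adjusted p up to 0.0612), and Apcs lost it without any 1 of 13 of the 16 arrays.

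Under Fc-GLP-1, the MCD diet and the standard diet could be compared within a slide at both times. Before PH, 6 of the 10 genes were lower and 1 higher in M+Fc-GLP-1 than in C+Fc-GLP-1 mice, beside 10.3% of all genes. Saa1 was 11.2-fold lower (-3.49 ± 0.63, adjusted p = 0.000405), Saa2 10.5-fold (-3.39 ± 0.70, adjusted p = 0.00171), Saa4 3.82-fold (-1.93 ± 0.41, adjusted p = 0.00203) and Saa3 3.09-fold (-1.63 ± 0.46, adjusted p = 0.0206). Orm1 (-1.19 ± 0.35, adjusted p = 0.0279) and Orm2 (-1.20 ± 0.38, adjusted p = 0.0424) were lower as well, and Apcs was 4.50-fold higher (2.17 ± 0.34, adjusted p = 7.80e-05). Lcn2 differed by -0.57 ± 0.86 and did not pass, a value that rests on M+Fc-GLP-1 arrays of the contrast for which Lcn2 was chosen. After PH, Saa1 was 8.41-fold lower in M+Fc-GLP-1 mice (-3.07 ± 0.63, adjusted p = 0.00127), Saa2 11.3-fold lower (-3.50 ± 0.70, adjusted p = 0.000963) and Saa4 3.43-fold lower (-1.78 ± 0.41, adjusted p = 0.00357), and Apcs was 6.22-fold higher (2.64 ± 0.34, adjusted p = 3.91e-06), beside 12.8% of all genes. Saa3 (-1.26 ± 0.46, adjusted p = 0.0701) did not pass after PH. Among treated mice, then, Saa1, Saa2 and Saa4 were lower and Apcs higher on the MCD diet at both times. Before PH the Orm2 call was lost without any of 6 arrays, Orm1 without any of 4 and Saa3 without any of 3 (adjusted p up to 0.189).

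After PH, the effect of Fc-GLP-1 on the standard diet passed the threshold for 0 of the 10 genes, beside 2.06% of all genes, and 1 gene, Hp, had an unadjusted p under 0.05 (0.62 ± 0.22, adjusted p = 0.155). On the MCD diet 4 genes were lower in treated mice, beside 6.50% of all genes. Saa2 was lower on the log2 scale (-3.43 ± 0.70, adjusted p = 0.00356), Orm3 9.86-fold (-3.30 ± 0.81, adjusted p = 0.0141), Saa1 8.03-fold (SE 0.63 log2 units, adjusted p = 0.00449) and Saa3 5.55-fold (-2.47 ± 0.46, adjusted p = 0.00164). Lcn2 was lower on all 4 treated arrays, by 1.32 ± 0.86, and did not pass (adjusted p = 0.385, limma). These M+Fc-GLP-1 arrays after PH are one side of the contrast for which Lcn2 was chosen. Its p and its lack of overlap are therefore not independent of that choice. The groups did not overlap for 5 of the 10 genes, Lcn2 among them, beside 14.3% of all genes. Apcs differed by -0.19 ± 0.34. Hp went the other way, 0.71 ± 0.22 higher in treated mice, just outside the threshold (adjusted p = 0.0518). Over 16 alternatives its difference ran from 0.15 to 0.90, and 2 of them called it. Saa4 (-1.23 ± 0.41, adjusted p = 0.0647) and Orm2 (-0.89 ± 0.38, adjusted p = 0.162) did not pass. Both passed under normexp with quantile normalization and with the authors' values, and Saa4 also without M+Fc-GLP-1 replicate 3. At this time Saa1, Saa2 and Saa3 were thus called lower in treated than in untreated MCD mice, with the Saa4 call depending on the processing. Orm3 lost its call without M+Fc-GLP-1 replicate 1 (adjusted p = 0.0601).

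Changes over time compared liver 2 weeks after PH with liver taken at surgery. In C mice 6 of the 10 genes rose, beside 14.0% of all genes past the threshold, 6.08% higher. Lcn2 rose 20.5-fold (4.36 ± 0.86, adjusted p = 0.00148), Orm3 14.9-fold (3.90 ± 0.81, adjusted p = 0.00225), Saa2 12.1-fold (3.59 ± 0.70, adjusted p = 0.00132) and Saa1 8.09-fold (3.02 ± 0.63, adjusted p = 0.00227). Orm2 (1.49 ± 0.38, adjusted p = 0.0102) and Apcs (1.43 ± 0.34, adjusted p = 0.00612) rose less. Arrays before and after PH did not overlap for 6 of the 10 genes, beside 17.9% of all genes. In MCD mice 6 genes rose, beside 9.46% of all genes, 6.23% higher. Orm3 rose 11.7-fold (3.54 ± 0.81, adjusted p = 0.00566), Saa2 7.39-fold (2.89 ± 0.70, adjusted p = 0.00847), Saa1 5.65-fold (2.50 ± 0.63, adjusted p = 0.0113) and Saa3 3.63-fold (1.86 ± 0.46, adjusted p = 0.00976). Orm1 (1.33 ± 0.35, adjusted p = 0.0155) and Orm2 (1.48 ± 0.38, adjusted p = 0.0136) rose as well. Lcn2, already high before PH, was higher on every array after PH, by 2.49 ± 0.86, and stayed just outside (adjusted p = 0.0652), and 8 of the 10 genes did not overlap over time, beside 19.3% of all genes. Whether the changes over time differed between C and MCD mice was not tested. Without MCD replicate 2 before PH the Orm1 and Orm2 calls in MCD mice were lost, and Orm1 also without MCD replicate 2 after PH (adjusted p up to 0.0713).

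In C+Fc-GLP-1 mice 0 of the 10 genes passed over time, beside 0.834% of all genes, although all 10 differences were above 0 and 3 had an unadjusted p under 0.05. The largest were Lcn2 (2.45 ± 0.86, adjusted p = 0.160) and Saa2 (1.87 ± 0.70, adjusted p = 0.190). In M+Fc-GLP-1 mice Lcn2 stood 40.3-fold higher after PH, at a mean of 8.34 against 3.01, the contrast for which it was chosen. Orm1 (1.82), Orm2 (1.80), Orm3 (2.03), Saa1 (1.65) and Saa2 (1.76) had smaller log2 differences, and Saa3 (0.76), Apcs (0.66), Saa4 (0.37) and Hp (0.20) the smallest. Arrays before and after PH did not overlap for Lcn2 and Orm1, beside 8.95% of all genes, 3.52% higher. These values carry no test.

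Among 23 tested regulators of the acute phase response, Il1b, which encodes a cytokine that drives these genes, fell by 2.66 on the log2 scale under Fc-GLP-1 on the MCD diet before PH (SE 0.47, adjusted p = 0.00146). There 3 regulators rose and 2 fell, beside 7.24% of all genes past the threshold. The receptor genes Il1rap (1.39), Il6ra (1.28) and Il1r1 (1.27) rose, and the TNF receptor gene Tnfrsf1a (-0.87) fell besides Il1b. The MCD diet before PH raised 3 and lowered 1, a smaller share than the 26.5% of all genes past the threshold there. Cebpd, a C/EBP factor, was up by 1.95, Tnfrsf1a by 1.25 and the kinase gene Jak1 by 1.02, and Il1rap was down by 1.77. In C mice after PH 2 rose and 1 fell, near the share of all genes past the threshold, 14.0%. Il6 was about 6.42-fold higher after PH (adjusted p = 0.000753, limma), an uncertain size, since it was not well above background on any C array before PH. Il1b rose by 1.52 and Cebpb fell by 0.88. In MCD mice after PH 3 rose, beside 6.23% of all genes called higher: Il1r1 (1.80), Il22ra1 (1.24) and Stat3 (0.78). Under treatment the MCD diet went with lower Il1b both before (-2.61) and after PH (-2.32). Before PH 3 regulators were higher and 1 lower, beside 10.3% of all genes. After PH 4 were higher and 2 lower, beside 12.8% of all genes. MCD against C mice after PH gave 3 higher and 1 lower, beside 12.1% of all genes. For Fc-GLP-1 on the standard diet 0 of 23 passed before and after PH, beside 2.11% and 2.06% of all genes. For Fc-GLP-1 on the MCD diet after PH 0 passed, beside 6.50%, and for C+Fc-GLP-1 mice over time 0, beside 0.834%. The regulators called went in both directions in most comparisons, with median changes of the list between -0.30 and 0.25.

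Other acute phase genes give a wider frame. Of 21 further positive acute phase genes tested, 7 rose in MCD mice after PH and 0 fell, beside 6.23% of all genes called higher. Those were led by Lbp, the lipopolysaccharide-binding protein gene (1.91), Lrg1 (1.90) and the metallothionein gene Mt1 (1.75). In C mice after PH 3 rose, beside 6.08% of all genes called higher: Mt1 (2.51), Fgl1 (1.52) and Steap4 (1.42). Before PH, MCD mice had 2 higher and 3 lower, near the share of all genes past the threshold there, 26.5%. Mt1 (3.52) and the interleukin 1 receptor antagonist gene Il1rn (1.60) were higher. The fibrinogen genes Fga (-1.26) and Fgb (-0.56) and complement C3 (-0.55) were lower. Under Fc-GLP-1 on the MCD diet 2 were higher and 0 lower before PH, beside 7.24% of all genes past the threshold. They were Itih4 (0.93) and Fgb (0.71), whereas 5 members fell. After PH 2 were higher and 1 lower there, beside 6.50% of all genes, among them Hamp, the gene of the iron hormone hepcidin (2.71). Among treated mice the MCD diet went with higher Mt1 before (3.34) and after PH (4.26). Lower there were 2 others before PH and 1 after, beside 10.3% and 12.8% of all genes past the threshold. MCD against C mice after PH had 3 higher, again led by Mt1 (2.76), near the 12.1% of all genes past the threshold. For Fc-GLP-1 on the standard diet 0 of 21 passed before and after PH, beside 2.11% and 2.06% of all genes. For C+Fc-GLP-1 mice over time 0 passed, beside 0.834%. Of 11 negative acute phase genes, 4 were lower in MCD than in C mice before PH, led by Apoa1 (-1.13) and Igf1 (-0.97). This stands beside 26.5% of all genes past the threshold. In C mice after PH 2 fell, Apoa2 (-0.95) and Apoa1 (-0.82), beside 14.0% of all genes. In the other comparisons between 0 and 2 of the 11 passed, beside 0.834% to 12.8% of all genes.

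Of 8 tested receptors and partners of the encoded proteins, 3 rose and 2 fell in MCD mice before PH, beside 26.5% of all genes. Tlr2 (1.53), Hmox1, the haem oxygenase that acts downstream of haptoglobin (1.30), and the lipocalin receptor gene Slc22a17 (1.29) rose. Lrp2 (-2.11) and Lrp1 (-1.07) fell. Fpr2, a receptor for serum amyloid A, had these calls besides. It rose after PH in C (2.50) and MCD mice (2.04) and was lower under Fc-GLP-1 on the MCD diet after PH (-2.46). Before PH it was about 4.63-fold lower there, an uncertain size, as no M+Fc-GLP-1 array was well above background.

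Lcn2 is also a neutrophil gene, and some markers of leukocytes moved with it. Of 11 tested neutrophil markers, 3 rose in MCD mice before PH, among them S100a8 (3.06) and S100a9 (2.57), and 8 were not called. This is near the share of all genes past the threshold there, 26.5%. After PH 6 were higher in MCD mice than in C mice, beside 12.1% of all genes. Under Fc-GLP-1 on the MCD diet S100a8 (-3.01) and S100a9 (-2.55) fell and Ly6g (0.95) rose before PH, beside 7.24% of all genes. After PH 9 of 11 were lower there, beside 6.50% of all genes, led by Ltf (-5.17), Mpo (-4.35) and Camp (-4.12). Over time, 4 of the 11 rose in C mice and 8 in MCD mice, beside 6.08% and 6.23% of all genes called higher. The log2 summed level of the neutrophil markers lay between 5.80 and 6.53 in C, 6.29 and 7.003 in MCD, 6.15 and 7.25 in C+Fc-GLP-1 and 6.77 and 7.11 in M+Fc-GLP-1 mice before PH. After PH it lay between 6.63 and 6.88, 7.12 and 8.38, 6.22 and 6.90 and 6.16 and 6.99 in the same order. Csf3r made up between 38.7% and 96.1% of this sum. The mean sum before PH was 6.56 in MCD and 6.93 in M+Fc-GLP-1 mice, although Lcn2 was lower in the treated mice. Ltf and Mpo were not well above background on any C array before PH, nor were Mpo and Mmp8 in M+Fc-GLP-1 mice or these 3 genes and Ngp in C+Fc-GLP-1 mice. In M+Fc-GLP-1 mice, whose Lcn2 was high after PH, the sum and single markers went different ways. The highest sum was 7.11 before and 6.99 after PH, whereas S100a9 lay between 0.12 and 1.14 before and between 2.45 and 4.86 after PH, and S100a8 between -4.09 and -1.63 before and between -0.46 and 2.70 after PH, neither with overlap. The part of neutrophils in the Lcn2 levels was not tested.

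Macrophage and Kupffer cell markers also moved with Lcn2 before PH. Of 11 tested, 8 rose in MCD mice, led by Trem2 (4.62) and Vsig4 (2.30), beside 26.5% of all genes past the threshold. Among them Gpnmb was about 34.5-fold higher, an uncertain size, as no C array was well above background. Under Fc-GLP-1 on the MCD diet 4 fell, beside 2.78% of all genes called lower: Cd5l (-1.84), Clec4f (-1.79), Vsig4 (-1.71) and Csf1r (-1.65). Their log2 summed level ranged from 7.02 to 8.49 in MCD mice before PH, from 5.91 to 6.78 in C and from 5.64 to 6.97 in M+Fc-GLP-1 mice. After PH 10 of the 11 rose in C mice, beside 6.08% of all genes called higher. In MCD mice over time 1 of the 11 rose, beside 6.23% of all genes called higher. In MCD against C mice after PH 1 was higher, beside 12.1% of all genes past the threshold. The sums of C mice after PH spread from 7.08 to 9.26, and those of M+Fc-GLP-1 mice lay between 7.54 and 7.98. As for neutrophils, the part of these cells in the levels of Lcn2 and of Saa3 was not tested. Of 3 mesothelial markers Wt1 rose in MCD mice before PH (1.96) and Msln in MCD mice after PH (3.26). Of 4 biliary markers Epcam fell in MCD mice after PH (-2.28). Of 8 hepatocyte markers 3 were lower in MCD mice before PH, among them Serpina1a (-0.79), and 2 fell in C mice after PH. Of all genes, 26.5% passed in MCD against C mice before PH, and over time 14.0% in C and 9.46% in MCD mice. No hepatocyte marker was called higher beside Lcn2 and Apcs in MCD mice before PH or in C mice after PH.

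**Figure D4:**
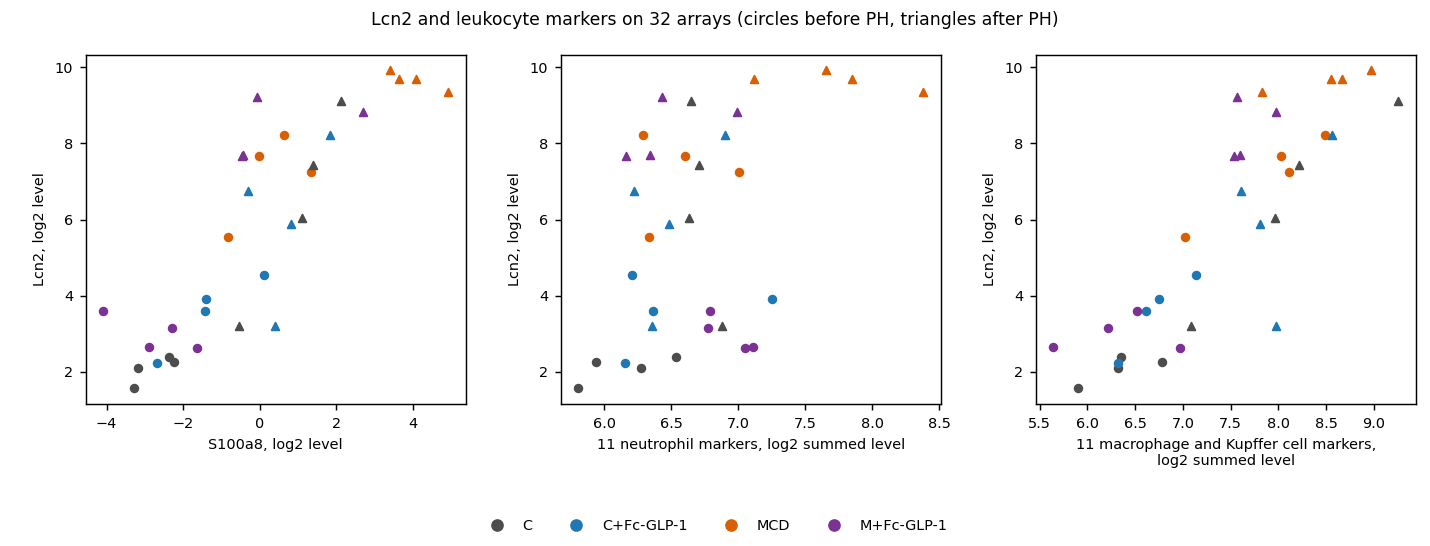
Log2 level of Lcn2 (y axis) on each of 32 arrays against the neutrophil alarmin S100a8 (left), the log2 summed level of 11 neutrophil markers (centre) and that of 11 macrophage and Kupffer cell markers (right), coloured by group. M+Fc-GLP-1 arrays after PH (purple triangles) have Lcn2 between 7.66 and 9.21 at neutrophil sums of 6.16 to 6.99, of which Csf3r is a large share, and at S100a8 levels of -0.46 to 2.70, above the -4.09 to -1.63 of the same treatment before PH (purple circles).

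The genes whose levels ran most like those of single members over the 32 arrays were named by Pearson r, with no test, over arrays that share groups and slides. For Lcn2 they were Slpi (0.90), Chil3 (0.88) and S100a9 (0.88), all known from granulocytes or activated macrophages. For Saa1 they were Lasp1 (0.86), Folr2 (0.85) and Steap4 (0.85), and for Saa3 Mefv (0.83), Csf2rb (0.83) and Rac2 (0.83), genes of myeloid cells. Orm2 ran with Prtn3 (0.85), Tmem176a (0.84) and Chil1 (0.81). Apcs ran with the fetal liver gene Afp (0.93), the sulfotransferase gene Sult1e1 (0.93) and the asparagine synthetase gene Asns (0.92). Hp ran with an unannotated transcript (0.76), Med16 (0.74) and Trf (0.74), the transferrin gene, which is counted as a negative acute phase gene. Among the members, Orm1 and Orm2 had an r of 0.88, and Lcn2 and Orm3 of 0.81. Apcs and Saa4 went apart over all arrays (-0.65) but not within groups (0.26), and r of Hp with the other members ran from -0.44 to -0.0015.

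**Figure D5:**
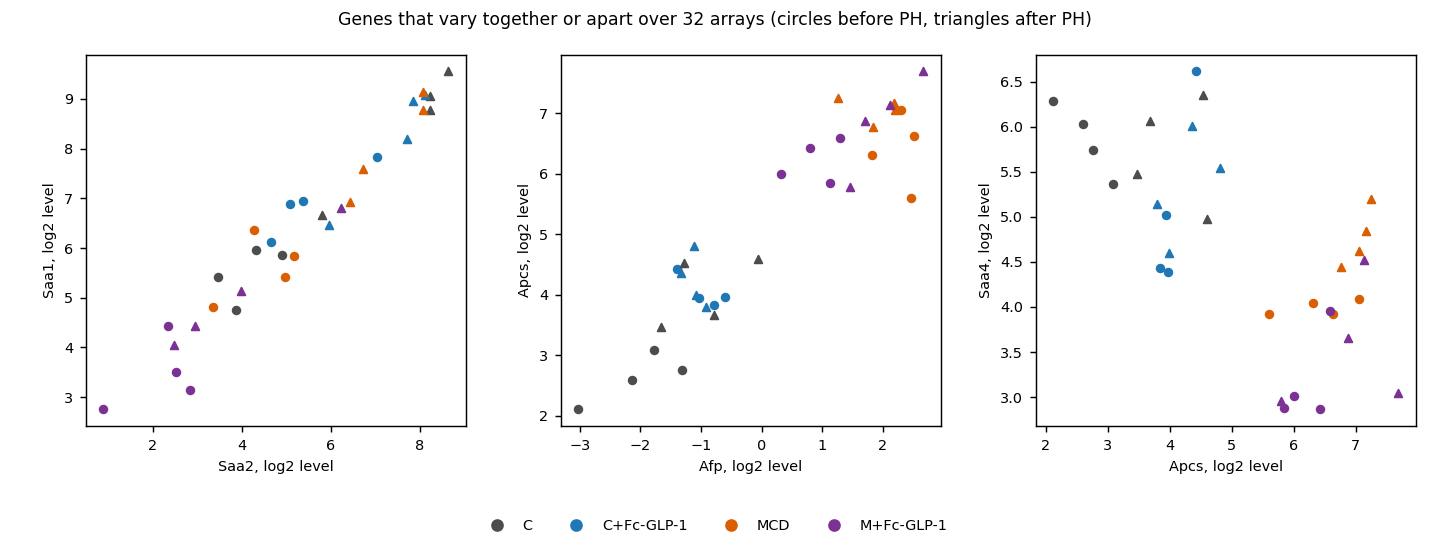
Log2 levels on 32 arrays of Saa1 against Saa2 (left), Apcs against Afp (centre) and Saa4 against Apcs (right), coloured by group with circles before and triangles after PH. Saa1 and Saa2 lie along a line (r = 0.97), and so do Apcs and Afp (r = 0.93), whereas Saa4 falls from the standard diet to the MCD diet as Apcs rises (r = -0.65).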

How the data were processed

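The 32 liver RNA samples were hybridised to one-colour Agilent arrays, 1 each. Per the file headers, the scanner software gave processed signal intensities, corrected for background and spatial trend on a linear scale. The authors also deposited normalized log2 values, made separately for samples before and after PH, and these served as an alternative for comparisons within a time. Depth does not apply to arrays, so precision rests on 4 arrays per group, which the labels call biological replicates.

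Here log2 intensities were centred on the 75th percentile over 59305 non-control spots of each array, flagged spots were left out and spots of a probe were averaged. A probe entered the tests if some group had it well above background on each of its 4 arrays (28958 of 55681 probes), and the brightest stood for its gene (21092 genes). RefSeq gave current symbols. Groups were compared with limma 3.58.1 in R 4.3.3 over all 8 groups (24 residual degrees of freedom), with Benjamini-Hochberg adjustment per comparison at 0.05 and 12 comparisons tested. On simulated data for M+Fc-GLP-1 against MCD mice before PH (21092 genes), 28% of 100 changes of 1 and 86% of 100 changes of 2 log2 units were recovered. The changed genes were a smaller share than the 7.24% called in the real comparison, so these rates need not carry over.

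The 10 genes, the gene lists and the marker lists were chosen with earlier results of these data known. From each list, up to 3 rises and 3 falls past the threshold in a comparison were named, with markers that moved with a member, and the 3 genes closest in Pearson r to each of 6 members. The choices varied were background correction with normalization (normexp with an offset of 50, quantiles), centring, the filter and choice of probes, and the samples and blocks in the fit.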

Additional observations from a re-analysis of the deposited data

Results flagged for a closer look

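In 5 of the 80 sets of 4 arrays (10 genes in 8 groups), 1 array lay far from the other 3, with a gap to the next that passed Dixon's 95% critical value, and chance gives about 1 in 20 sets. C replicate 3 after PH was far below the others for Saa2, at 5.81 against 8.24 for the next array, and for Orm1, at 6.76 against 7.48. M+Fc-GLP-1 replicate 2 before PH was far above the others for Saa3, at 0.861 against 0.329, and for Saa4, at 3.95 against 3.01. M+Fc-GLP-1 replicate 3 after PH was far above for Saa3, at 2.62 against 0.890.

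The effect of Fc-GLP-1 before PH was called different between the diets for 4 genes, by the limma interaction test: -3.60 for Saa1, -3.70 for Saa2, -5.65 for Lcn2 and -1.59 for Apcs, on the log2 scale. Of 24 alternatives, 19 kept the Saa2 call and 7 the Apcs call. Orm2, just outside in the main fit, passed under 10. The Lcn2 value shares its M+Fc-GLP-1 arrays before PH with the contrast for which Lcn2 was chosen, and its p is not independent of that choice.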

How the results depend on the processing

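Of 42 calls of the 10 genes, 28 held under every alternative run and none changed sign. Leaving out 1 array at a time lost 63 refitted calls and kept 305. Normexp with quantile normalization lost 5 of 42, the authors' values 4 of 30, no filter on dim probes 3 and a fit of the compared groups alone 4, whereas centring on the median, the percentile over probes above background and the mean over probes lost 0. As each of the 10 genes has 1 probe, the mean over probes and the lack of a filter left its values unchanged. Both acted only through the other genes in the fit and are weak checks. The number of the 10 genes called became 2 (normexp with quantiles), 2 (authors' values) and 0 (compared groups alone) in C+Fc-GLP-1 against C before PH, 3 (normexp with quantiles) in M+Fc-GLP-1 against MCD before PH, 1 (authors' values) and 1 (compared groups alone) in MCD against C after PH, and 1 (normexp with quantiles) in C+Fc-GLP-1 mice over time. With 1 array left out, the counts before PH ran from 3 to 3 for MCD against C, 0 to 1 for C+Fc-GLP-1 against C, 1 to 5 for M+Fc-GLP-1 against MCD, 4 to 7 for M+Fc-GLP-1 against C+Fc-GLP-1 and 2 to 5 for the interaction. After PH they ran from 1 to 3, 0 to 0, 3 to 5 and 4 to 5 in that order, and over time from 6 to 6 in C, 4 to 6 in MCD and 0 to 0 in C+Fc-GLP-1 mice. In no comparison did every pair of arrays with the same replicate number correlate above 0.1 (mean r from -0.031 to 0.179). The main fit did not use the numbers as pairs. Low correlations across slides cannot exclude that a replicate number marks a single animal at both times, so pairing over time is undecided. A fit with a replicate block gave 7 genes instead of 6 in MCD mice over time, adding Lcn2, and again 4 interaction calls, with Orm2 in place of Apcs. Centring on the median moved the median of all genes by 0.367 in MCD against C before PH and by -0.624 in the interaction, with 0 calls of the 10 genes lost. The causes of lost calls were not tested. Over all genes and with all arrays kept, the count of calls before PH ran from 48 (compared groups alone) to 2498 (normexp with quantiles) beside 445 for C+Fc-GLP-1 against C, from 1420 to 6761 (no filter) beside 1527 for M+Fc-GLP-1 against MCD, from 1311 (authors' values) to 2514 beside 2182 for M+Fc-GLP-1 against C+Fc-GLP-1, and from 532 (normexp with quantiles) to 2566 (median) beside 1301 for the interaction. After PH its lowest values were 1611 beside 2556 for MCD against C (compared groups alone), and 69 beside 434, 769 beside 1370 and 1787 beside 2701 for the other 3 (authors' values, no filter, authors' values). Over time it ran from 1165 (compared groups alone) to 3113 beside 2945 in C, from 1259 (normexp with quantiles) to 2455 beside 1995 in MCD, and from 53 to 1340 beside 176 in C+Fc-GLP-1 mice. With 1 array left out, the lowest count over all genes was 549 (without MCD replicate 1) for M+Fc-GLP-1 against MCD, 198 (without C replicate 1) for C+Fc-GLP-1 against C and 650 (without MCD replicate 1) for the interaction before PH. After PH it was 691 (without MCD replicate 2) for M+Fc-GLP-1 against MCD, 180 (without C replicate 2) for C+Fc-GLP-1 against C and 1657 (without C replicate 2) for MCD against C. Over time it was 1532 (without C replicate 1 after PH) in C mice, and in C+Fc-GLP-1 mice it was 19 when their replicate 1 after PH was left out. Probes near background limit low genes such as Il6, whose fold sizes are uncertain.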
